A study of Rattus norvegicus with 66 samples.

Results

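Dorsal hippocampus of male rat pups whose dams had received chlorpyrifos at 3 mg/kg (CPF3) was compared with that of male control pups on postnatal day (PND) 6. The comparison holds every male pup of CPF3 (7 pups in 7 libraries) and every male control pup (9 pups in 10 libraries), which are 16 of the 64 pups of the series. The series covers 3 chemicals given to Long Evans dams during pregnancy and lactation and measures gene expression in the offspring by RNA sequencing. CPF3 dams were injected subcutaneously with chlorpyrifos, and their male pups came from 7 litters. Of the 9 male controls, 5 were offspring of dams injected with vehicle (CONSC) and 4 of dams that received the control feed (CONF). The labels name saline as the injection vehicle, whereas the methods of the study name DMSO. Every pup of the comparison came from another litter. The doses are those of the dams, and the amount that reached the pups was not measured here. The tissue piece also held a part of the laterally adjacent cortex. Male pups exposed through the feed to a mixture of polychlorinated biphenyls at 5 mg/kg (Aro5, 6 pups) or bisphenol A at 5 mg/kg (BPA5, 7 pups), male pups of the lower chlorpyrifos dose of 1 mg/kg (CPF1, 4 pups), and females of CPF3 (4 pups) and controls (10 pups in 11 libraries) served to place the result.

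Chlorpyrifos is an organophosphate insecticide. Its oxon metabolite inhibits acetylcholinesterase, the enzyme that ends cholinergic transmission, and also other serine hydrolases, among them butyrylcholinesterase and enzymes that break down endocannabinoids. During the first postnatal week the rat hippocampus still adds granule cells, its interneurons settle and mature, and cholinergic fibres from the septum grow in.

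Total counts were 11179635 to 27089261 per CPF3 library (median 19967593) and 10777044 to 18045602 per male control library. The names of the male libraries occur in 2 forms. Form A ends in a capital Y and form B in a lower-case y, and the sources used here do not say what the forms stand for. All 7 CPF3 libraries have form B, and so have all Aro5 and BPA5 males. Of the 10 male control libraries, 9 have form A and 1 has form B. The latter is a second library of CONF pup N2-2y, which also has a library of form A, and its 2 libraries were summed for the tests. Between CPF3 and control males, exposure and form of name cannot be told apart beyond this 1 library. CPF1 males have form A. In bulk tissue, fewer cells of a type and less RNA per cell cannot be told apart either. Of the 7 marker genes of hippocampal neurons, 6 had a median of at least 1 CPM (counts per 1000000 counts of the library) in CPF3 and in controls, and Fibcd1 was at 0 in all of them. Their summed level was 197 to 314 CPM in CPF3 (median 268) and 218 to 286 CPM in controls (median 263).

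Few genes separated CPF3 males from control males, and most of them were copies of other genes or unnamed entries. Of 16393 genes tested, 26 (0.159%) reached an adjusted p below 0.05 by the edgeR quasi-likelihood test (Benjamini-Hochberg adjustment). Expression of 8 of these genes was higher in CPF3 (0.0488%), and that of 18 was lower (0.11%). At an unadjusted p under 0.05 there were 2064 genes (12.6%), 874 higher (5.33%) and 1190 lower (7.26%). The median log2 fold change of all genes tested was 0.00. The CPM ranges of CPF3 and control pups did not overlap for 40 genes tested, or 0.244%, and 18 of the 26 called genes were among them (7 of the 8 higher and 11 of the 18 lower). With CONSC pups as the only controls, the group of the same route, 21 genes were called, of which 16 were among the 26, and with CONF pups as the only controls 12 genes were called, of which 8 were among the 26. The count was 17 without CPF3 pup 35-5y and 41 without CONSC pup 10-2y. The study, with its own processing and tests, reported far more genes below its false discovery rate threshold for males of this dose. The reason for this difference was not tested.

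**Figure D1:**
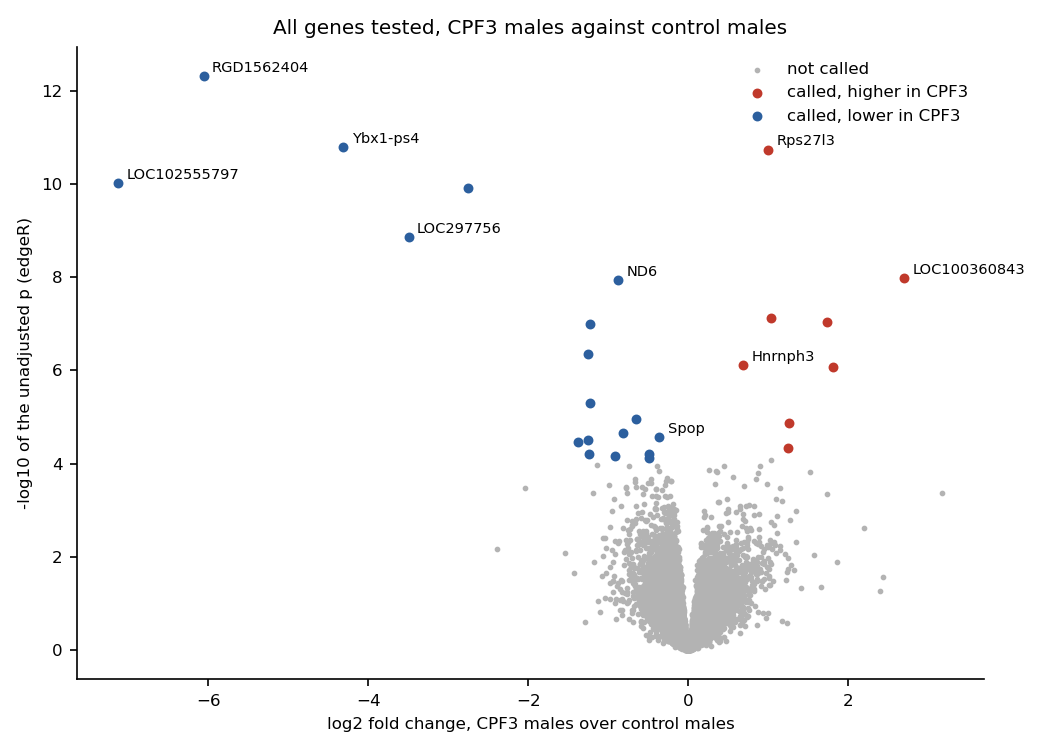
Log2 fold change of CPF3 males over control males (x axis) against -log10 of the unadjusted p of edgeR's test (y axis, a log scale) for the 16393 genes tested. Red points are the 8 called genes with higher and blue points the 18 called genes with lower expression in CPF3; several entries of copies lie far from the other genes, RGD1562404 at -6.06 and LOC100360843 at 2.70.

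By today's RefSeq names where a match was found, and otherwise by the symbol in the count files, only 6 of the 26 genes carry the symbol of a known gene that is not a copy. These are Hnrnph3, which was higher in CPF3, and ND6, Spop, Sspn, Tmem14a and Ints9, which were lower. Hnrnph3 encodes a heterogeneous nuclear ribonucleoprotein that takes part in splicing. Its level was 5.83 to 8.87 CPM in CPF3 (median 6.20) and 3.27 to 5.26 CPM in controls (median 4.22), so that the groups did not overlap. Hnrnph3 rose by 0.68 ± 0.11 on the log2 scale (SE; adjusted p = 0.00097, edgeR quasi-likelihood test (Benjamini-Hochberg adjustment)). It was the only one of 30 hnRNP and SR splicing factors tested with a call. Of the other factors of that list 1 entry of Srsf5 was lower at an unadjusted p under 0.05, with a log2 fold change of -0.23, and the median of the list was 0.02.

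ND6 is a subunit of complex I of the respiratory chain and lies on the other strand of mitochondrial DNA than the remaining protein-coding genes. Expression of ND6 was 41.8 to 59.9 CPM in CPF3 (median 45.8; 48.3 ± 6.21, SD, n = 7) and 72.4 to 106 CPM in controls (median 87.2; 89.3 ± 11.5, SD, n = 9). All CPF3 pups were below all control pups, and ND6 fell by 0.88 ± 0.11 on the log2 scale (SE; adjusted p = 2.41e-05 by the edgeR quasi-likelihood test (Benjamini-Hochberg adjustment)). The other 12 mitochondrially encoded genes tested had log2 fold changes of -0.19 to 0.18 and no call. Among them COX2 alone (-0.19 ± 0.08) had an unadjusted p under 0.05. The strand setting of the authors' counting is not given in the sources used here, and reads of ND6 and of RNA from the opposite strand may not be separated.

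Spop, an adaptor of a cullin 3 ubiquitin ligase, had 80.6 to 113 CPM in CPF3 (median 85.1) and 112 to 126 CPM in controls (median 114), and the highest CPF3 pup overlapped with the lowest controls. Sspn (sarcospan, a membrane protein of the dystrophin complex) had 6.80 to 10.5 CPM in CPF3 (median 9.21) against 11.6 to 14.0 CPM in controls (median 12.9), without overlap. Ints9 is a subunit of the Integrator complex that processes small nuclear RNAs. Its CPM values were 3.04 to 4.58 in CPF3 (median 3.78) and 4.71 to 7.07 in controls (median 5.18), again without overlap. Tmem14a, a small transmembrane protein, had 1.70 to 3.76 CPM in CPF3 (median 2.95) and 3.21 to 7.15 CPM in controls (median 5.84), with some overlap. By the edgeR quasi-likelihood test (Benjamini-Hochberg adjustment), Spop fell by 0.36 ± 0.07 (SE; adjusted p = 0.0231), Sspn by 0.49 ± 0.10 (adjusted p = 0.043), Tmem14a by 0.91 ± 0.20 (adjusted p = 0.0444) and Ints9 by 0.49 ± 0.11 (adjusted p = 0.0483) on the log2 scale. These 4 calls lay near the threshold. In 16 fits that each lacked 1 pup, Spop kept its call in 10, Tmem14a in 5, Sspn in 3 and Ints9 in 3, whereas Hnrnph3 and ND6 kept it in all 16.

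Of the 26 genes, 12 are listed here as copies of another gene, by present RefSeq names where a match was found. Expression of 4 copies was higher and that of 8 lower. No RefSeq match was found for 5 of the 26 genes. The biotype pseudogene was held by 7 of the 26 (26.9%), against 1.61% of the genes tested. Reads of such copies can be shared with their source genes, and their values are uncertain. Rps27l3, a copy of Rps27a, which encodes ubiquitin fused to a ribosomal protein, had 14.4 to 17.9 CPM in CPF3 (median 15.5) and 6.77 to 12.0 CPM in controls (median 7.48). The groups did not overlap, and the log2 fold change of Rps27l3 was 1.00 ± 0.10 (SE; adjusted p = 1.01e-07 by the edgeR quasi-likelihood test (Benjamini-Hochberg adjustment)). LOC100360843, a copy of the ribosomal protein gene Rps19, had 0.831 to 1.86 CPM in CPF3 and 0 to 0.555 CPM in controls, a log2 fold change of 2.70 ± 0.34. The other copies with higher expression were LOC692028, a copy of Matr3 (1.73 ± 0.25), and LOC100362339, another copy of Rps19 (1.25 ± 0.26).

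Among the copies with lower expression, RGD1562404 (of the ribosomal protein gene Rps18) had 0.584 to 2.92 CPM in controls (median 1.88) and 0 to 0.0516 CPM in CPF3. Summed over pups these were 229 counts in controls and 3 counts in CPF3, a ratio of 78.9 with an exact Poisson interval of 26.7 to 385 that covers counting error only. Ybx1-ps4, of the RNA and DNA binding protein gene Ybx1, had 0.731 to 3.18 CPM in controls (median 1.64) and 0.0378 to 0.155 CPM in CPF3, a log2 fold change of -4.31 ± 0.41. For both entries every CPF3 pup was below every control pup. The remaining copies with lower expression were LOC100360758 of the peroxiredoxin gene Prdx1 (-2.76 ± 0.29), LOC100360977 of the cyclophilin A gene Ppia (-1.26 ± 0.20), LOC102549228 of the histone deacetylase gene Hdac2 (-1.23 ± 0.22), LOC103692338 of the thymosin beta 4 gene Tmsb4x (-1.26 ± 0.26), LOC102556146 of Ybx1 (-1.25 ± 0.27) and a second entry of Chtop (-0.66 ± 0.12), which RefSeq now names Chtopl1.

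The source genes of these copies, named after their values were seen, did not pass the test. Of 10 source genes 9 were tested, with log2 fold changes of -0.15 to 0.13, and the smallest adjusted p was 0.404 by the edgeR quasi-likelihood test (Benjamini-Hochberg adjustment). Ybx1 had 383 to 424 CPM in CPF3 and 378 to 437 CPM in controls, a log2 fold change of 0.01 ± 0.05. The main entry of Chtop, an RNA-binding protein of mRNA export, had a log2 fold change of -0.09 ± 0.06.

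The other 8 called genes were a pseudogene (LOC297756), 2 long noncoding RNAs (LOC102550394 and LOC102548080), an uncharacterized protein-coding gene (LOC102551813), and 4 entries without a match in the RefSeq table (LOC102555797, LOC100360781, LOC102548588 and LOC103692051). LOC102555797 had no counts in any CPF3 pup and 110 counts over the controls, where it had 0.409 to 0.975 CPM. With a floor of 3 counts over the group it was 37.9-fold lower in CPF3, and an exact Poisson interval that covers counting error only began at 30.3-fold. The form A library of control pup N2-2y had 0.850 CPM of this entry and the form B library 0 CPM. No Aro5 or BPA5 library had more than 0.0307 CPM. LOC102551813 had 7.48 to 11.5 CPM in CPF3 and 2.64 to 6.02 CPM in controls, without overlap, and a log2 fold change of 1.04 ± 0.15. Of the long noncoding RNAs, LOC102550394 had 1.70 to 3.70 CPM in CPF3 and 4.92 to 7.36 CPM in controls. LOC102548080 had 1.43 to 2.55 CPM in CPF3 and 2.66 to 4.73 CPM in controls, and neither overlapped. Across the 26 genes, 8 had a median under 1 CPM in both groups. The gene next below the threshold, chosen after its value was seen, was LOC679963, a copy of the elongation factor gene Eef1a1 (log2 fold change 1.04 ± 0.19, adjusted p = 0.0512 by the edgeR quasi-likelihood test (Benjamini-Hochberg adjustment)).

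The pair of libraries of the untreated pup N2-2y allows the form of name to be set beside the exposure for each called gene. For ND6 the form A library had 101 CPM, within the controls, and the form B library 46.1 CPM, within CPF3. Rps27l3 had 8.68 CPM in the form A and 15.1 CPM in the form B library of this control. Hnrnph3 had 3.95 CPM in form A and 6.48 CPM in form B. In these 3 genes the form B library of an untreated pup thus lay inside the range of CPF3. RGD1562404 had 1.15 CPM in form A and 0.0564 CPM in form B, and Tmem14a 5.04 and 2.65 CPM. Spop (118 and 110 CPM), Sspn (14.3 and 11.7 CPM) and Ints9 (5.52 and 5.30 CPM) were nearer to the median of the controls than to that of CPF3 in both libraries. For Spop the form B library still lay inside the range of CPF3 and below every other control. With the form A library alone standing for this pup 52 genes were called, and with the form B library alone 17.

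**Figure D2:**
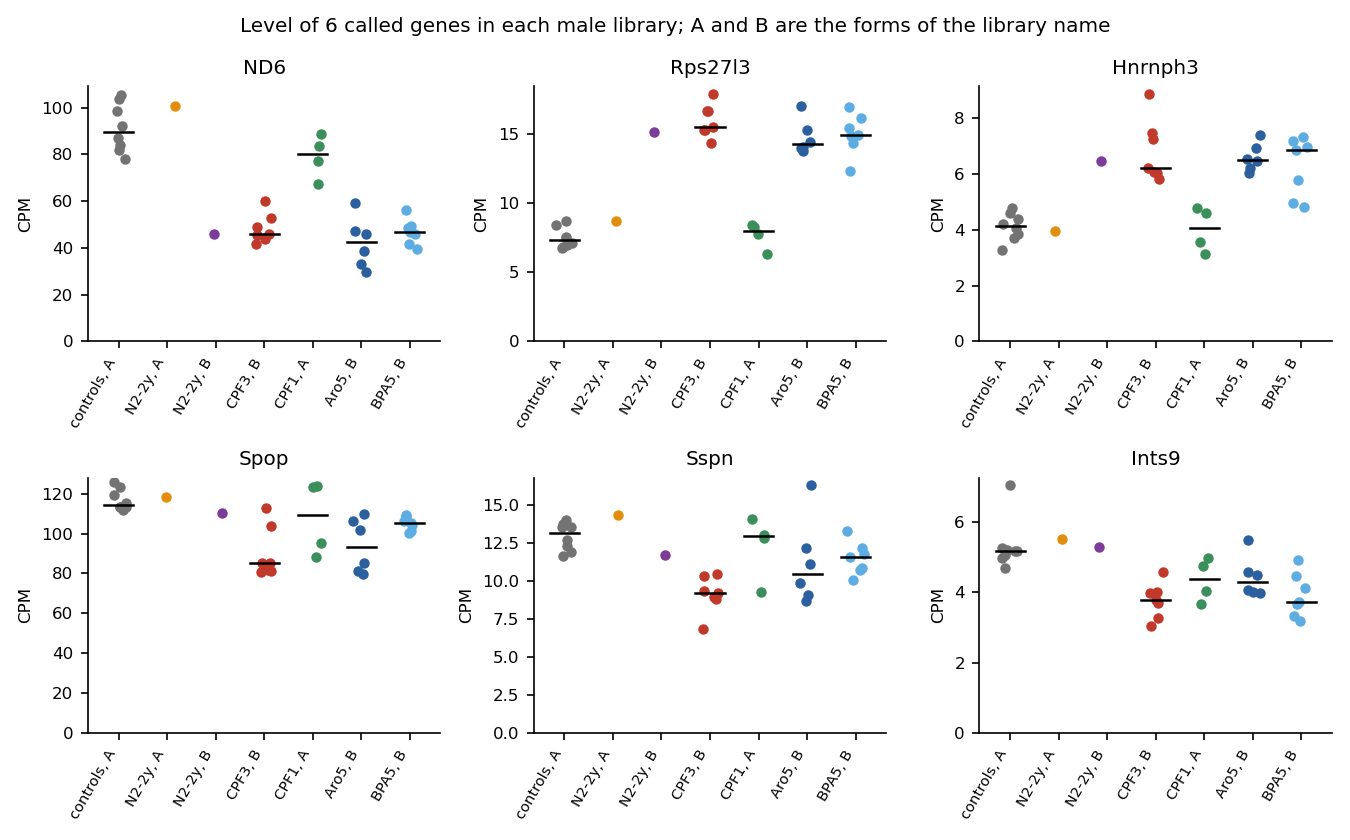
Level in CPM (y axes, starting at 0) of 6 called genes in each male library, by group and form of name (x axis); each point is a library and black lines are group medians. For ND6, Rps27l3 and Hnrnph3 the form B library of control pup N2-2y (46.1, 15.1 and 6.48 CPM) lies among CPF3, Aro5 and BPA5, and the medians of CPF1, of form A, are nearer to the controls.

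Over the 26 called genes, on the scale of log2(CPM + 0.1), the form A library of N2-2y was nearer to the CPF3 median than to that of the other 8 controls for 1 gene, and the form B library for 19 genes. The 7 genes whose form B library was nearer to the controls were LOC102550394, LOC100360781, LOC102549228, Spop, LOC100362339, Sspn and Ints9. The form A library was inside the range of the other controls for 23 genes. The form B library was inside the range of CPF3 and outside that of the other controls for 15 genes, and inside that of the controls alone for 4 genes. CPF1 males, which were exposed to chlorpyrifos at the lower dose and have form A, had medians nearer to CPF3 than to the controls for 2 of the 26 genes. Aro5 and BPA5 males, which have form B and were exposed to other chemicals, were nearer to CPF3 for 25 and 24 genes. The 26 genes were called on the difference between CPF3 and these controls, N2-2y among them, and the same groups set the scale. Such counts were not made over all genes tested, so that no share stands beside them. When the form of name was a term of the fit in males, a fit that leans on the pair of libraries of N2-2y, 0 genes were called and 244 had an unadjusted p under 0.05. That fit took single libraries as units, so that the pair of libraries of N2-2y counted as separate replicates. In it 19 of the 26 genes kept their sign, and those that turned or reached 0 included ND6 (0.083) and Tmem14a (0.13). Across the alternative fits, this fit among them, log2 fold changes were -0.43 to -0.26 for Spop and -0.53 to -0.34 for Sspn. They were -0.55 to -0.43 for Ints9 and -1.49 to -1.16 for LOC102549228. Those of Rps27l3 and Hnrnph3 were as low as 0.096 and 0.090. How far the form of name accounts for a call beyond these values was not tested.

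**Figure D3:**
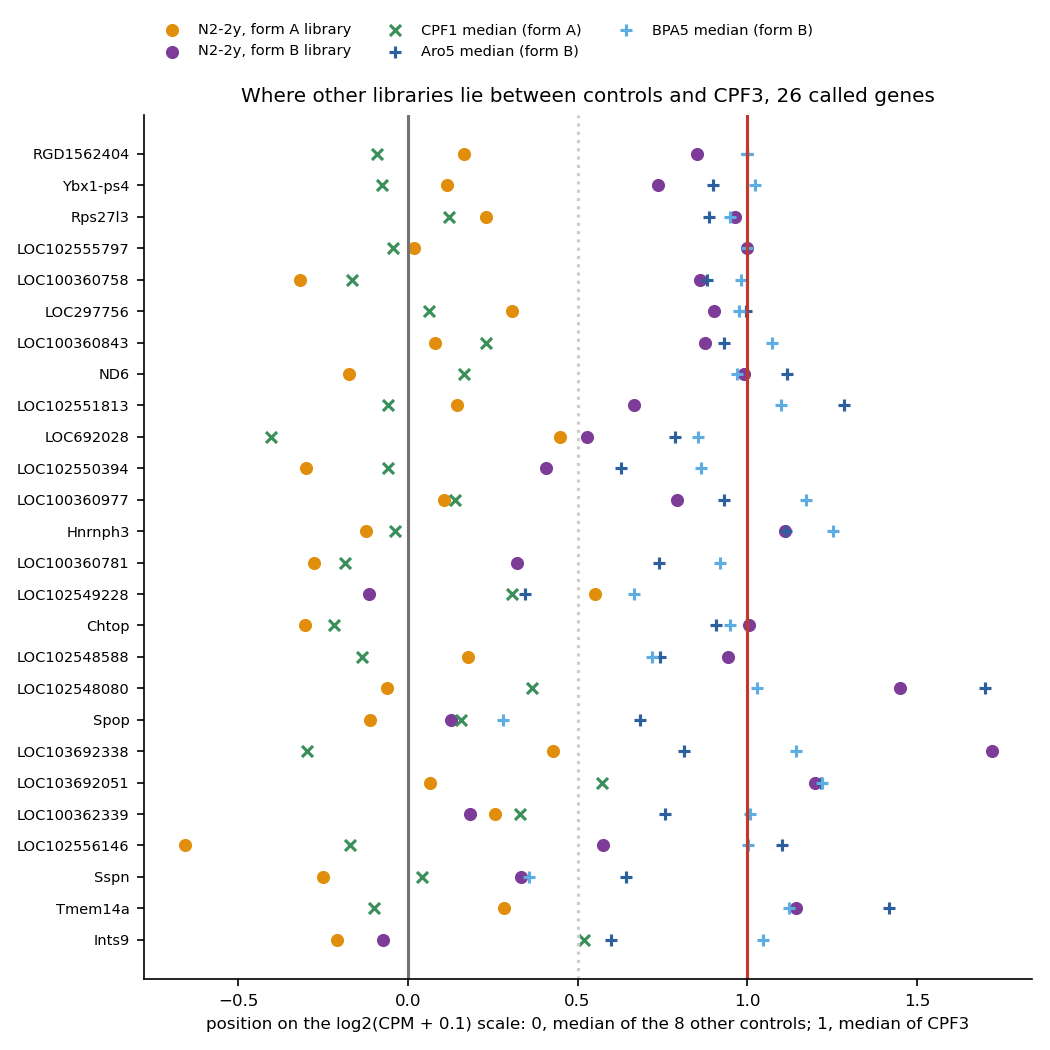
Position of other libraries between the median of the 8 other controls (0 on the x axis) and the median of CPF3 (1) on the log2(CPM + 0.1) scale, for the 26 called genes (y axis). The genes were called on the difference between CPF3 and the controls. Filled circles are the 2 libraries of control pup N2-2y and crosses the medians of CPF1, Aro5 and BPA5; the form A library is nearer to CPF3 for 1 gene, the form B library for 19, CPF1 for 2, Aro5 for 25 and BPA5 for 24.

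The cholinergic synapse, the system on which chlorpyrifos acts, showed no called gene among its 22 entries tested. The median log2 fold change of the list was 0.03, and 1 entry was higher and 1 lower at an unadjusted p under 0.05. Over all genes tested 5.33% were higher and 7.26% lower in this sense. These shares apply beside the counts of every list below. Acetylcholinesterase (Ache) and butyrylcholinesterase (Bche), named after their values were seen, are the enzymes inhibited by chlorpyrifos oxon. Ache had 45.3 to 96.2 CPM in CPF3 (median 49.0) and 42.6 to 76.6 CPM in controls (median 58.7), with a log2 fold change of -0.02 ± 0.18. Bche had 7.27 to 12.8 CPM in CPF3 and 5.47 to 12.4 CPM in controls, with a log2 fold change of 0.11 ± 0.17. The groups overlapped widely in both. Chrna7, the alpha 7 nicotinic receptor, had 14.2 to 28.7 CPM in CPF3 (median 17.9) and 6.20 to 23.1 CPM in controls (median 13.0), a log2 fold change of 0.59 ± 0.26 with an unadjusted p of 0.0314 and an adjusted p of 0.368 by edgeR's test. Prima1, which anchors acetylcholinesterase in the membrane of neurons, had 3.03 to 6.91 CPM in CPF3 and 5.43 to 8.57 CPM in controls (-0.46 ± 0.20, unadjusted p = 0.0308). Colq, the collagen tail of the enzyme, and Lynx1, a modulator of nicotinic receptors, had log2 fold changes of -0.58 ± 0.34 and -0.37 ± 0.20.

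Of 17 serine hydrolases and endocannabinoid enzymes tested none was called, and the median was 0.01. The cannabinoid receptor gene Cnr1 (0.36 ± 0.14) was the 1 entry higher and Mgll, which degrades 2-arachidonoylglycerol, the 1 entry lower (-0.20 ± 0.10) at an unadjusted p under 0.05. Among 12 genes of xenobiotic metabolism tested 1 was higher and 2 were lower in this sense. Ahr, the aryl hydrocarbon receptor, had 2.49 to 5.67 CPM in CPF3 (median 5.11) and 0.244 to 4.38 CPM in controls (median 2.28), a log2 fold change of 0.95 ± 0.33 (adjusted p = 0.272, edgeR). Pon2, a paraoxonase, had -0.26 ± 0.08, and the epoxide hydrolase Ephx1 -0.24 ± 0.09. In the antioxidant response, 1 of 17 genes tested (Gclc, 0.13) was higher and 2 were lower at an unadjusted p under 0.05, namely Nqo1 (-0.23) and Nfe2l2 (-0.25), the transcription factor of this response. Thyroid hormone genes (10 tested) and markers of dividing cells (15 tested) had no entry at an unadjusted p under 0.05.

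A list of 20 entries of developmental genes that the study had selected had a median log2 fold change of 0.33, against 0.00 over all genes, and 9 entries were higher and 0 lower at an unadjusted p under 0.05. None was called. The study chose most of these genes on these samples, so that the values here are not independent evidence of a direction. Nrg1 and Erbb4 it took up from earlier work on chemical mixtures. By real time RT PCR of further males it also measured Sox6, Sox11, Pou2f1, Nrg1 and Erbb4. It measured Esr1 by PCR too, in a larger number of samples than it had sequenced. It reported Sox6, Sox11, Pou2f1, Erbb4 and Esr1 as higher with this dose by both methods. Those PCR values are not part of the counts used here. Sox11, a transcription factor of immature neurons, had 11.4 to 23.9 CPM in CPF3 (median 15.7) and 6.74 to 19.8 CPM in controls (median 9.36), a log2 fold change of 0.67 ± 0.20 (adjusted p = 0.21 by the edgeR quasi-likelihood test (Benjamini-Hochberg adjustment)). The POU domain factors of neural progenitors Pou3f2 (0.66 ± 0.22) and Pou3f3 (0.38 ± 0.12), and Pou2f2 (0.66 ± 0.23), also had an unadjusted p under 0.05. So had the ephrin receptor Epha4 (0.35 ± 0.13), the neuregulin receptor Erbb4 (0.57 ± 0.25), Notch2 (0.36 ± 0.16), Sox17 (0.36 ± 0.15) and Sox4 (0.21 ± 0.09). The groups overlapped for Sox6, with 10.1 to 20.5 CPM in CPF3 and 9.83 to 23.7 CPM in controls (0.06 ± 0.18), for Sox5 (0.02 ± 0.11), and for the oestrogen receptor Esr1 with 3.40 to 8.02 and 3.73 to 9.70 CPM (0.14 ± 0.18). Gli3 (0.34 ± 0.22), Fzd3 (0.33 ± 0.23), Pou2f1 (0.31 ± 0.20), Efnb2 (0.40 ± 0.20), Nrg1 (0.23 ± 0.13), Sox2 (-0.11 ± 0.10) and the 2 entries of Tcf7l2 (0.15 ± 0.45 and 0.10 ± 0.44) had unadjusted p values above 0.05. Against the other high-dose males the median of the list was 0.02.

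In axon guidance, 9 of 31 entries tested were higher and 0 lower at an unadjusted p under 0.05. Over all genes tested these shares were 5.33% and 7.26%. The median of the list was 0.12, with no call. Plxna3, a semaphorin receptor, had 172 to 248 CPM in CPF3 and 157 to 207 CPM in controls (0.23 ± 0.07). Ephb2 (0.31 ± 0.12) and Epha3 (0.45 ± 0.17), receptors of ephrins like Epha4, were further entries of this list. In the list of neural progenitors and neurogenesis 3 of 15 entries tested were higher and 1 was lower. Neurod2, a transcription factor of young excitatory neurons, had 26.1 to 42.4 CPM in CPF3 (median 34.4) and 19.0 to 29.5 CPM in controls (median 23.8), a log2 fold change of 0.59 ± 0.16 with an adjusted p of 0.161 by edgeR's test. Tbr1 (0.44) and doublecortin (Dcx, 0.32) were the other entries higher and Sox9 (-0.17) the entry lower. Beside these lists, 3 of the 8 neocortical marker genes were higher and 1 was lower at an unadjusted p under 0.05, with a median of 0.38, and their summed level was 402 to 871 CPM in CPF3 and 296 to 655 CPM in controls. The part of adjacent cortex in these values was not tested.

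**Figure D4:**
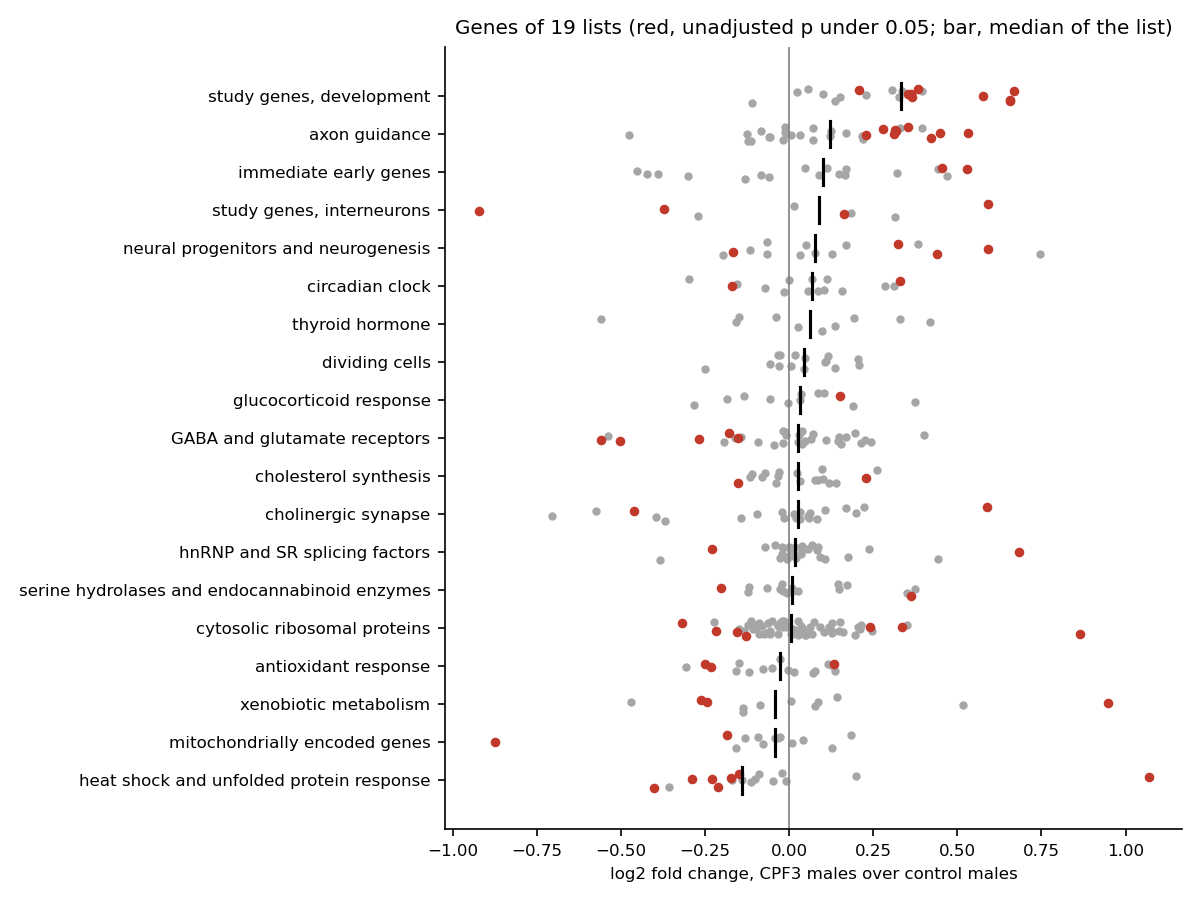
Log2 fold changes of CPF3 males over control males (x axis) for the entries tested of 19 gene lists (y axis); each point is a gene, red where the unadjusted p was under 0.05, and bars are list medians. The developmental genes selected by the study have the highest median (0.33) and heat shock and unfolded protein response the lowest (-0.14).

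Genes of the heat shock and unfolded protein response had a median log2 fold change of -0.14 and no call. At an unadjusted p under 0.05, 6 of 17 entries were lower and 1 was higher. Over all genes tested these shares were 7.26% and 5.33%. The lower entries with the smallest p were chaperones of the endoplasmic reticulum. Calr (calreticulin) had 471 to 557 CPM in CPF3 (median 525) and 548 to 676 CPM in controls (median 585), a log2 fold change of -0.21 ± 0.05 (adjusted p = 0.0849, edgeR quasi-likelihood test (Benjamini-Hochberg adjustment)). Hspa5 (BiP), the main chaperone of that compartment, had 228 to 328 CPM in CPF3 and 292 to 518 CPM in controls (-0.40 ± 0.10, adjusted p = 0.111 by the same edgeR test). The groups overlapped in both. Hsp90b1 had a log2 fold change of -0.29 ± 0.07 (adjusted p = 0.0893, edgeR). The 1 entry higher was Hsp90aa1 with 1.07 ± 0.32, which had a median under 1 CPM in both groups. Against the other high-dose males the median of the list was -0.04.

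Of 32 genes of GABA and glutamate transmission tested 0 were higher and 5 lower at an unadjusted p under 0.05, with a median of 0.03. Over all genes tested these shares were 5.33% and 7.26%. Gad1, which makes GABA, had 90.4 to 172 CPM in CPF3 (median 121) and 134 to 235 CPM in controls (median 183), a log2 fold change of -0.56 ± 0.15 (adjusted p = 0.145, edgeR). Gad2, the other enzyme of GABA synthesis, had 22.4 to 54.3 CPM in CPF3 and 33.9 to 65.2 CPM in controls (-0.50 ± 0.24). Grik3 (-0.18 ± 0.05) and Gabra4 (-0.27 ± 0.12) encode subunits of a kainate and a GABA-A receptor. Among 8 interneuron genes that the study had examined 2 were higher and 2 lower at an unadjusted p under 0.05. The higher ones were Cck (0.59 ± 0.20) and Reln (0.16 ± 0.07). Of the lower ones, Pvalb had 0.998 to 5.72 CPM in CPF3 and 3.97 to 15.6 CPM in controls (-0.92 ± 0.39). Htr3a had 4.68 to 7.27 and 6.65 to 10.3 CPM (-0.37 ± 0.16). From its sequencing data the study also reported Pvalb as lower with this dose. The values of Sst (0.02 ± 0.18), Nos1 (0.18 ± 0.18), Vip (0.32 ± 0.25) and Calb2 (-0.27 ± 0.21) did not separate the groups.

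Beside the lower values of Gad1 and Gad2, genes of striatal projection neurons, which use GABA, also had lower values in CPF3. All 6 striatal marker genes had negative log2 fold changes, with a median of -0.84, 4 of them at an unadjusted p under 0.05, namely Penk (-1.08 ± 0.46), Drd1 (-0.84 ± 0.37), Adora2a (-0.94 ± 0.42) and Drd2 (-0.76 ± 0.37). None was called. Their summed level was 109 to 585 CPM in CPF3 (median 135) and 110 to 632 CPM in controls (median 375). The CPF3 pup 45-1y was at 585 CPM and the next one at 194 CPM. Without 45-1y the log2 fold change of Drd1 was -1.38, with an adjusted p of 0.0918 by edgeR's test, and that of Gad1 was -0.65. The part of striatal tissue in the values of Gad1 and Gad2 was not tested.

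None of the markers of glia was called. Over all genes tested 7.26% were lower at an unadjusted p under 0.05. Of the astrocyte markers 3 of 8 were lower at an unadjusted p under 0.05 (median -0.19), among them S100b (-0.39 ± 0.13) and Gja1 (-0.29 ± 0.10). Microglia had 3 of 9 (median -0.25), with Csf1r at -0.33 ± 0.12 and Cx3cr1 at -0.30 ± 0.12, and oligodendrocytes 3 of 11 (median -0.16), with Mog at -0.62 ± 0.23 and Pdgfra at -0.20 ± 0.07. The summed levels overlapped between groups for astrocytes (1279 to 1850 CPM in CPF3 and 1569 to 1971 CPM in controls), microglia (61.2 to 114 and 70.7 to 137 CPM) and oligodendrocytes (603 to 919 and 694 to 970 CPM). Markers of the thalamus had no entry at an unadjusted p under 0.05, but their sum varied widely, with 311 to 1480 CPM in CPF3 and 565 to 1484 CPM in controls. No entry of the endothelium or the choroid plexus had an unadjusted p under 0.05, and of the blood cell markers 1 was lower (Hbb, -0.54 ± 0.25). Hypothalamic markers summed to 1.73 to 9.13 CPM in CPF3 and 1.83 to 8.77 CPM in controls.

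**Figure D5:**
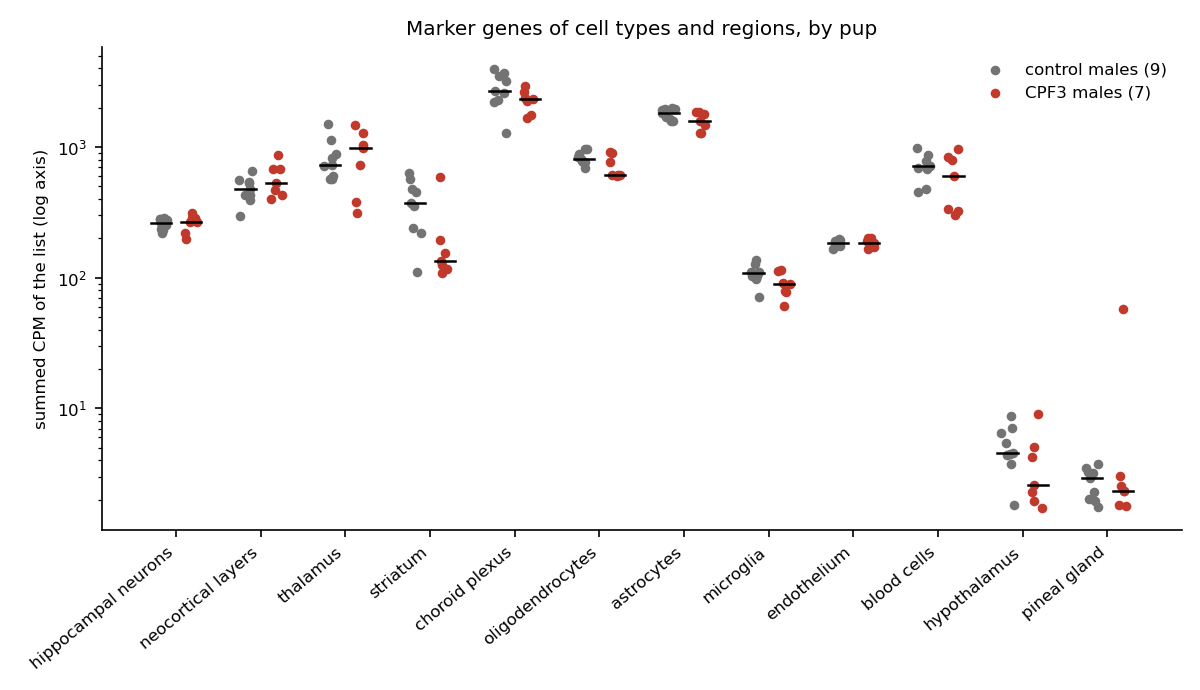
Summed CPM (y axis, log scale) of marker genes of 12 cell types or regions in each of the 9 control and 7 CPF3 males; each point is a pup and black lines are group medians. The striatal sum is low in all CPF3 pups but 45-1y (585 CPM), and the pineal sum is high in CPF3 pup 36-3y alone (57.4 CPM).

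One CPF3 pup, 36-3y, stood apart by genes of the pineal gland, which were selected after their values were seen. Tph1, which starts serotonin synthesis, had 35.7 CPM in 36-3y, at most 0.729 CPM in the other CPF3 pups and at most 1.27 CPM in controls. Crx, a transcription factor of photoreceptors and pinealocytes, had 3.92 CPM in 36-3y, 0 in the other CPF3 pups and at most 0.380 CPM in controls. Aanat (2.32 CPM) and Asmt (1.03 CPM), the last enzymes of melatonin synthesis, and Pde6g (11.6 CPM) and Sag (2.06 CPM) of the phototransduction cascade were also highest in 36-3y. The 7 pineal genes summed to 57.4 CPM in 36-3y and to at most 3.03 CPM in the other CPF3 pups. Otx2, drawn with these genes but not part of the sum, had 0 CPM in every CPF3 and control male. With all pups, Tph1 had a log2 fold change of 3.18 ± 0.80 (adjusted p = 0.105, edgeR), and without 36-3y it was -0.19 ± 0.33. Pde6g went from 1.01 ± 0.40 to -0.14 ± 0.17. Without 36-3y, 22 genes were called, all of which were among the 26, and the log2 fold change of Slc35f1, a putative solute carrier, was 0.82 in place of 1.10.

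Among named genes with at least 1 CPM that missed the threshold, the 10 higher and the 10 lower with the smallest p had adjusted p values of 0.0585 to 0.133 by the edgeR quasi-likelihood test (Benjamini-Hochberg adjustment). On the higher side were Rpl31l4 (0.90), Znrf1 (0.26), Mex3b (0.35), Ado (0.56), Fam19a2 (0.85), Per2 (0.33), Tph1, Slc35f1, Cdk5r1 (0.38) and Mycn (0.38). Per2, a repressor of the circadian clock, had 20.3 to 29.8 CPM in CPF3 (median 24.5) and 18.6 to 23.2 CPM in controls (median 19.7). Cdk5r1 encodes p35, the activator of the neuronal kinase Cdk5, with 54.1 to 85.3 CPM in CPF3 and 44.6 to 65.6 CPM in controls. Mycn, which drives growth of neural progenitors, had 30.2 to 44.1 and 22.5 to 32.1 CPM. The groups overlapped in these 3 genes.

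On the lower side were Casc1 (-0.39), Tpcn2 (-0.36), Adam17 (-0.26), Myo7a (-0.47), Tvp23a (-0.22), Calr, Clmn (-0.46), Hsp90b1, Apobr (-0.57) and Casq2 (-0.65). Adam17, the protease that releases tumour necrosis factor and ligands of the EGF receptor from the membrane, had 21.2 to 25.1 CPM in CPF3 and 25.7 to 31.6 CPM in controls, without overlap. Tpcn2, a cation channel of lysosomes, had 9.27 to 13.3 and 13.4 to 17.0 CPM, and Myo7a, an unconventional myosin, 3.35 to 5.46 and 5.65 to 7.55 CPM, both also without overlap. The further lists had few entries at an unadjusted p under 0.05 and no call. These were 2 of 18 immediate early genes (Ier2, 0.45, and Fosl2, 0.53), 1 of 12 genes of the glucocorticoid response (Sgk1, 0.15), and in the circadian clock Per2 and Cry1 (-0.17) of 15. In cholesterol synthesis they were Srebf2 (0.23) and Sc5d (-0.15) of 18. Of 70 cytosolic ribosomal protein genes tested 3 were higher, with Rpl15 at 0.33 and Rpl36 at 0.87 (0.46 without pup 36-3y, which had 147 CPM), and 4 lower, with Rpl26 at -0.22.

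CPF3 males were also compared with the other high-dose males, whose libraries have the same form of name. This comparison uses no controls and sets chlorpyrifos beside the polychlorinated biphenyls and bisphenol A, which were given by another route. Of the 16393 genes 0 were called by the edgeR quasi-likelihood test (Benjamini-Hochberg adjustment) (0%), and 494 had an unadjusted p under 0.05 (3.01%), with 203 higher (1.24%) and 291 lower (1.78%), while DESeq2 called 0 and had 528 at an unadjusted p under 0.05. Hnrnph3 had 6.05 to 7.39 CPM in Aro5 and 4.81 to 7.34 CPM in BPA5, and its log2 fold change in CPF3 against them was 0.08 ± 0.10. ND6 had 29.7 to 59.1 CPM in Aro5 and 39.7 to 56.1 CPM in BPA5 (0.12 ± 0.10). Among the 26 genes called against controls, LOC102549228 (-0.70, unadjusted p = 0.00224), Sspn (-0.31, unadjusted p = 0.00318) and Spop (-0.14, unadjusted p = 0.0425) had an unadjusted p under 0.05 in this comparison. Against the controls, which the contrasts share, Spop had a log2 fold change of -0.29 in Aro5 and -0.14 in BPA5, and Sspn -0.19 and -0.16. Levels of Sspn were 8.66 to 16.3 CPM in Aro5 and 10.1 to 13.2 CPM in BPA5, and overlapped with those of CPF3.

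Whether females responded to CPF3 like males was tested by the interaction of sex and exposure. Of 17282 genes tested 8 were called by the edgeR quasi-likelihood test (Benjamini-Hochberg adjustment) (0.0463%), 5 with a log2 fold change more positive in males (0.0289%) and 3 with one more negative (0.0174%). At an unadjusted p under 0.05 there were 967 genes (5.6%), 530 more positive (3.07%) and 437 more negative (2.53%) in males. The CPF3 female libraries had 12679856 to 86206550 counts. The count of calls was 3 or 4 when 1 of the 4 CPF3 females was left out and 5 to 7 when 1 CPF3 male was. Of these 8 genes, 7 were among the 26 called in males. Hnrnph3 had 4.77 to 6.81 CPM in CPF3 females (median 4.95), 5.59 to 7.54 CPM in the 5 female control libraries with a low line (_) after the group name, and 4.48 to 6.36 CPM in the other 6, which have no sign there or, in 1 library, a hyphen. Its log2 fold change was 0.68 in males and -0.16 in females, a difference of 0.85 ± 0.16 (adjusted p = 0.0122, edgeR). The noncoding LOC102550394 differed by -1.26 ± 0.26 (adjusted p = 0.0413, edgeR), with 2.92 to 3.67 CPM in CPF3 females, and LOC102551813 by 1.51 ± 0.31 (adjusted p = 0.0359, edgeR), with 1.69 to 3.10 CPM in CPF3 females. The other genes with such a difference were the copies Ybx1-ps4 (-4.75) and LOC100360758 (-4.25), and LOC100360781 (3.13), LOC102548588 (2.23) and Gapdh-ps2 (3.59), all with medians under 1 CPM in CPF3 pups of both sexes. The 26 genes had in part another baseline in females. LOC102555797 had no counts in CPF3 females or in female controls of either form of name, and RGD1562404 had at most 0.158 CPM in them. The names of CPF3 females have a low line after the group name, but so have the form B names of CPF3 males. The form could therefore not be read from the names of CPF3 females, and in this comparison the form and the sex cannot be told apart.

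ND6 showed the 2 forms of name in female controls too. It had 49.6 to 61.8 CPM in the 5 female control libraries with a low line after the group name and 22.4 to 32.7 CPM in the other 6, and 25.2 to 40.2 CPM in CPF3 females. Chtopl1, the second Chtop entry, had 2.38 to 3.49 and 1.61 to 2.27 CPM in the corresponding female controls and 1.26 to 1.96 CPM in CPF3 females. Control pup N4-3x has a library in each of these sets, so that the sets are not fully independent. For 15 of the 26 genes the 6 female control libraries without a low line differed from the 5 with it in the direction in which CPF3 males differed from control males. All 15 were among the genes lower in CPF3 males. For every gene higher in CPF3 males, the female libraries without a low line had the lower median, as for Hnrnph3 (-0.17 on the log2 scale) and LOC100360843 (-1.50). The share over all genes tested was not counted. The form in females rests on another feature of the name than in males, and that both mark the same thing was not tested.

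The microRNA miR-24-3p is one the study examined, and the count tables list both genes that give rise to it. Its mature sequence, identical from both genes, is shown with the seed (bases 2 to 8) in capitals as held by RefSeq for the build GRCr8, at chr17:1818672-1818693 (Mir24-1) and chr19:40859481-40859502 (Mir24-2), both on the minus strand.
rno-miR-24-3p: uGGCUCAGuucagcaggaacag
Libraries of polyadenylated RNA hold precursor transcripts rather than mature microRNAs, and both entries were named after their values were seen. Mir24-1 had 6 to 33 counts per CPF3 pup and 6 to 32 per control pup, and its log2 fold change was 0.35 ± 0.29 (adjusted p = 0.622, edgeR quasi-likelihood test (Benjamini-Hochberg adjustment)). Mir24-2 had 0 to 5 counts per pup and did not pass the filter, so that a difference in this precursor was not detectable at this depth.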

How the data were processed

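RNA of dorsal hippocampus was sequenced from libraries made with a stranded mRNA kit. The authors deposited raw counts of reads per gene for each library. The submitters' processing notes name STAR, featureCounts and kallisto and the build Rnor_6.0. Versions, strand setting and handling of reads with several matches are not given in the sources used here. The labels name a NovaSeq and the methods a HiSeq sequencer. Each file lists 37777 genes, of which 28336 were matched to RefSeq names (GRCr8). No coordinates of that build were used beside the microRNA sequence.

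Where a pup had 2 libraries, their counts were added, except in the fits with a term for the form of name. Those fits used single libraries, without a block for the pup. CONF and CONSC served as 1 control group, as in the study, and 29 males (controls, Aro5, BPA5 and CPF3) entered 1 fit in edgeR 4.0.16 (R 4.3.3) with TMM factors (0.963 to 1.025). Low counts were filtered per group with filterByExpr, and quasi-likelihood F tests were adjusted after Benjamini and Hochberg across the genes tested. A gene was called at an adjusted p under 0.05. SE is the log2 fold change divided by the square root of F. The sex difference came from a fit of 52 pups of both sexes. CPM values are counts per 1000000 of a library. Outside the fits with a term for the form of name, p-values measure the spread between pups, each from another litter in CPF3 and control males. The female CPF3 and control pups include littermates of males. Intervals on counts cover counting error only. The fits were tested on simulated counts.

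Alternatives were other sets of controls, the time window of 10.30 to 13.20 h, time of day or form of name as a covariate, either library of N2-2y alone, each pup left out, other filters, DESeq2 1.42.0 and its size factors, and limma 3.58.1. A fit without pups 36-3y and N2-2y was added after seeing the data. Levels and figures were made with Python 3.11.15, numpy 2.4.6, pandas 2.3.3, scipy 1.17.1 and matplotlib 3.10.9.

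The groups, gene lists, rules and tests were chosen with earlier results of these data known. Genes named are all those called, the 10 higher and 10 lower next in order of p with a known symbol and at least 1 CPM on average, the genes selected by the study, up to 4 genes of each other list by the smallest p, and genes called for the other contrasts. Genes named outside this rule are marked.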

Additional observations from a re-analysis of the deposited data

Results flagged for a closer look

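In each group of pups or libraries the highest and the lowest value were checked for a gap to the others that is large against the range of the group (Dixon's test at the 95% level), over 153 groups of values, of which 17 had such a gap. Chance alone gives one in about 1 of 20 groups. Of the 17, 6 concerned CPF3 pup 36-3y. It had the highest Tph1 (35.7 CPM, next 0.729), Slc35f1 (8.15 CPM, next 4.28) and Cck (96.6 CPM, next 62.4) of the CPF3 males. It also had the lowest Epha4 (181 CPM, next 263), Sox6 (10.1 CPM, next 16.2) and Sox5 (73.0 CPM, next 95.2). Other CPF3 pups stood apart in the striatal sum (45-1y, 585 CPM, next 194), Fam19a2 (35-5y, 15.4 CPM, next 10.4) and Vip (44-2y, 15.9 CPM, next 8.59). Among male controls, CONSC 8-4y had the highest Cck (68.4 CPM, next 45.0), Pvalb (15.6 CPM, next 9.59) and second entry of Tcf7l2 (9.37 CPM, next 5.57). CONSC 10-2y had the lowest Sox2 (106 CPM, next 117) and the highest Esr1 (9.70 CPM, next 6.75). The highest Rps27l3 belonged to CONF N2-2y, the pup with a library of each form of name (12.0 CPM, next 8.70), the highest Ints9 to CONF N3-4y (7.07 CPM, next 5.41), and the highest Apobr to CONSC 11-4y (3.22 CPM, next 2.23).

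The difference between CPF3 and controls was itself different between the sexes, by the interaction term of the edgeR quasi-likelihood test (Benjamini-Hochberg adjustment), for 8 genes. In this comparison sex and the form of the library name cannot be told apart. The log2 fold change in males minus that in females was -4.75 for Ybx1-ps4 (adjusted p = 4.77e-05), -4.25 for LOC100360758 (adjusted p = 0.0122), 1.51 for LOC102551813 (adjusted p = 0.0359), -1.26 for LOC102550394 (adjusted p = 0.0413), 0.85 for Hnrnph3 (adjusted p = 0.0122), 3.13 for LOC100360781 (adjusted p = 0.0122), 2.23 for LOC102548588 (adjusted p = 0.0122) and 3.59 for Gapdh-ps2 (adjusted p = 0.0413), all by that edgeR test.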

How the results depend on the processing

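The count of 26 genes called against controls was 12 with CONF controls alone, 52 with the form A and 17 with the form B library of N2-2y alone, 0 with the form of name as a term in males (244 at an unadjusted p under 0.05) and 15 with that term in both sexes, of which 4 were among the 26 and all were higher. It was 82 with DESeq2, 147 with limma-voom and sample quality weights, and 7 with at least 10 counts in every pup, where 11 of the 26 were tested. With 1 pup left out it was 17 (without CPF3 35-5y) to 41 (without CONSC 10-2y). The other alternatives gave 18 to 32. With the form of name as a term in males the log2 fold change turned for LOC103692051 (0.091), LOC102548080 (0.27), Chtopl1 (the second Chtop entry, 0.12), LOC103692338 (1.01), Tmem14a (0.13) and ND6 (0.083), and with that term in both sexes for LOC102548080 (1.19) and ND6 (0.025). In CPF3 and control males form and exposure differ in 1 control library alone, and the cause of these turns was not tested. No gene was called against the other high-dose males under any alternative run, with 309 to 1129 at an unadjusted p under 0.05. The 8 genes of the sex difference became 16 with DESeq2, 5 without the filter, 1 with at least 10 counts, 2 with CPF3 and controls only, 1 in the time window and 3 to 7 with 1 CPF3 pup left out. With the litter as a replicate block (limma-voom) 7 genes were called, 5 of them shared, and the correlation within litters was -0.0061. CPF3 and control males share no litter, and with 1 of the 2 Aro5 littermates left out 0 genes were called against the other high-dose males. Depth limits the 8 called genes with medians under 1 CPM.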
